A study of Mus musculus with 4 samples.

Results

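The major urinary protein (Mup) genes Mup1, Mup2, Mup3, Mup4, Mup5, Mup20 and Mup21 were examined in liver RNA of ageing mice. These 7 members were chosen by name, from 33924 gene symbols in the files, and all 7 were found there. The files list 42 symbols of the family, 21 of them genes and 21 of them pseudogenes, so that 14 other Mup genes stood beside the members. The libraries were made from the livers of male C57BL/6Rj mice (C57BL6 in the labels) of 3, 9, 15 or 21 months of age. Age defines the groups, and the sources name no allele or treatment. For each age, 1 μg of RNA from each of 24 mice (4 mice at each of 6 times of the day) was combined and gave 1 library. There was therefore no replicate at any age, differences between single mice and between times of the day were averaged away, and all intervals given here cover counting error only. The capped 5’-ends of the RNA were sequenced with reads of 35 bases, and a count is the number of such reads on a gene.

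Major urinary proteins are small lipocalins, proteins with a barrel-shaped pocket that binds volatile odorants. Hepatocytes secrete them into the blood, the kidney filters them into the urine, and there they release the odorants slowly from scent marks. Their genes lie side by side as near-identical copies and are known as targets of growth hormone, whose pulses in males act through STAT5b, and also of androgens and glucocorticoids. Mup20 encodes darcin, a protein pheromone of male urine. Mup4 and Mup5 are known mainly from glands and mucosa of the head rather than from the liver.

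The counts on genes summed to between 525772 at 15 months and 958586 at 9 months, which were 6.67% to 8.42% of all records of a library. Records of reads with more than 1 place in the genome made up 72.2% to 76.7% and are not part of any gene count. Of the markers fixed for hepatocytes, 6 of 6 had counts, and their summed level was 75491 to 86526 cpm (counts scaled to 1000000 counts on genes). The summed level of 5 macrophage markers was 351 to 446 cpm, of 4 endothelial markers 333 to 484 cpm, of 4 stellate cell markers 39.8 to 74.2 cpm, of 4 cholangiocyte markers 6.26 to 24.5 cpm and of 4 leukocyte markers 10.4 to 22.8 cpm. Of these, Epcam of the cholangiocytes was at 0 in all libraries. In such whole-liver pools, fewer hepatocytes and less RNA per hepatocyte cannot be told apart.

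All 7 members lie on the minus strand of chromosome 4 in the assembly NCBIM37, which is mm9, between the start of Mup4 and the end of Mup21 (chr4:59969676-61811897, 1842 kb). In this order Mup4 is at 59969676 to 59973582, Mup2 at 60080259 to 60167161, Mup1 at 60510884 to 60514832, Mup5 at 61492353 to 61496267, Mup20 at 61711268 to 61715192, Mup3 at 61744510 to 61748376 and Mup21 at 61808966 to 61811897. All are annotated as protein-coding. The longest models have 7 exons, and that of Mup21 has 6. Mup2 shares 148 exonic bases with Mup7, a gene that is not a member, and the other 6 members share no exonic base with another gene. Genes next to the cluster had few counts in this liver RNA. On one side Snx30, at a distance of 52.1 kb, had 12, 8, 4 and 3 counts at 3, 9, 15 and 21 months, and 1110054O05Rik had 0, 1, 0 and 2 counts. On the other side Zfp37, at a distance of 38.7 kb, had 0, 0, 2 and 5 counts, and Slc31a2 had 6, 5, 4 and 9 counts.

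The letters TATATAA, searched on both strands, are in the first 30 bases of the annotated transcript in 20 of the 21 Mup genes, but in only 55 of all 22611 protein-coding genes (0.243%). They start at base 15 of the transcript model numbered 001 in Mup1, Mup2, Mup3, Mup4, Mup5 and Mup21, and at base 13 in Mup20. TATATAA resembles a TATA box, and transcription usually starts some way behind such a box. To show how far a short read from this stretch can tell the members apart, the 30 bases that start 30 bases behind the first T are printed here, 5’ to 3’, from NCBIM37 on the minus strand. Capitals mark bases that differ from Mup2.
Mup1 (chr4:60514759-60514788): tggagtgtagccacgatcacaagaaagacg
Mup2 (chr4:60152696-60152725): tggagtgtagccacgatcacaagaaagacg
Mup3 (chr4:61748303-61748332): tggagtgtagGcacTatAacCTgaaagacg
Mup4 (chr4:59973509-59973538): tggagtgtagGcacCatcacCagaaGgacg
Mup5 (chr4:61496194-61496223): tATagtgtagGcacCGtcaTCTgaaagacC
Mup20 (chr4:61715121-61715150): tggagtgtagGcacCatcacCagaaagacg
Mup21 (chr4:61811824-61811853): tggagtgtagGcacCatAacCTgaaagacg

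Mup1 and Mup2 had the same letters here, Mup20 differed from Mup2 at 3 bases, Mup4 at 4, Mup3 and Mup21 at 5 each and Mup5 at 9. Over the coding sequence, Mup1 and Mup2 were identical at 99.4% of the aligned positions (3 of 543 differed), Mup3 and Mup21 at 94.8% (29 of 555 differed), Mup4 and Mup5 at 92.1% (43 of 543 differed). Mup3 and Mup1 were identical at only 83.0%. The nearest relative of Mup1 among all 21 genes was Mup12 and that of Mup2 was Mup15, each with 2 differing bases, both outside the members. The first 60 coding bases, which encode the start of the secretion signal, are shown for the members with usable counts beside Mup2, since Mup3 has bases there that Mup2 lacks. Capitals again mark bases that differ from Mup2 or are absent from it, in an alignment of the whole coding sequences.
Mup2: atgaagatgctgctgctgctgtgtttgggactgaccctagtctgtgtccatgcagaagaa
Mup3: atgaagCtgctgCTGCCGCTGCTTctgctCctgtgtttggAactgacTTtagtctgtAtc
Mup20: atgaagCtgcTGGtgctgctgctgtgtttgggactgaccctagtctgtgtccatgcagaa
Mup21: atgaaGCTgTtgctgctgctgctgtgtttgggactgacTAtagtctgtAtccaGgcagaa

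In these 60 bases, 18 of Mup3, 8 of Mup21 and 4 of Mup20 stood apart from Mup2. Bases of Mup2 that these genes may lack were not counted. With the whole coding sequence, Mup3 encodes 184 codons before the stop, Mup20 and Mup21 181, Mup1, Mup2 and Mup5 180, and Mup4 178.

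Only 3 of the members gave usable counts. Mup3 had 5692, 5641, 3713 and 3809 counts at 3, 9, 15 and 21 months. Mup20, the gene of darcin, had 177, 214, 165 and 156 counts. Mup21, the nearest relative of Mup3, had 113, 175, 87 and 99 counts. By count, Mup3 ranked between 20 and 26 among the genes of its library, whereas Mup20 ranked between 334 and 537 and Mup21 between 515 and 800. The other 4 members were at or next to 0. Mup1 had 0, 1, 1 and 1 counts, Mup4 had 2, 1, 0 and 0 counts, Mup5 had 0, 0, 1 and 0 counts, and Mup2 had 0 counts at every age. With 3 counts taken as the limit (one-sided), a count of 0 allows a level of up to 3.13 cpm at 9 months, the deepest library, and up to 5.71 cpm at 15 months. No fold-change is given for these 4 members. Together the members held 0.626%, 0.629%, 0.755% and 0.552% of the counts on genes at 3, 9, 15 and 21 months, with a 95% Wilson interval of 0.731% to 0.778% at 15 months and of 0.536% to 0.570% at 21 months.

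Whether a read can be counted on a Mup gene depends on how many places in the genome hold the same 35 bases. All windows of 35 bases within the first 100 bases of the transcripts were therefore searched in NCBIM37, with up to 1 mismatch as in the mapping of the study. A second place was found for 156 of 156 windows of Mup1, 66 of 66 of Mup2 and 66 of 66 of Mup20. The median number of places was 14 for Mup1 and for Mup2, but 2 for Mup20. For Mup3 42 of 119 windows (35.3%) had a second place, for Mup4 26 of 66 (39.4%) and for Mup21 36 of 66 (54.5%). For Mup5 it was 0 of 66 windows. Without mismatch, a second place was found for 23 of 119 windows of Mup3, 21 of 66 of Mup4 and 5 of 66 of Mup21. For Mup1 it was 151 of 156 windows, and the numbers for Mup2, Mup5 and Mup20 stayed the same. All other places of these windows lay on chromosome 4. Low counts therefore came with both kinds of 5’-ends, and shared 5’-ends also came with counts well above 0. Mup20 had 156 to 214 counts although none of its windows was without a second place. Mup1 and Mup2 were near 0 and, with up to 1 mismatch, had no window without a second place. Mup5 was near 0 although each of its windows was found at 1 place only. Whether reads from Mup4 and Mup5 were assigned to these genes was not tested, since the alignments were not used here, so that their counts near 0 do not show that the RNA was absent.

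**Figure D1:**
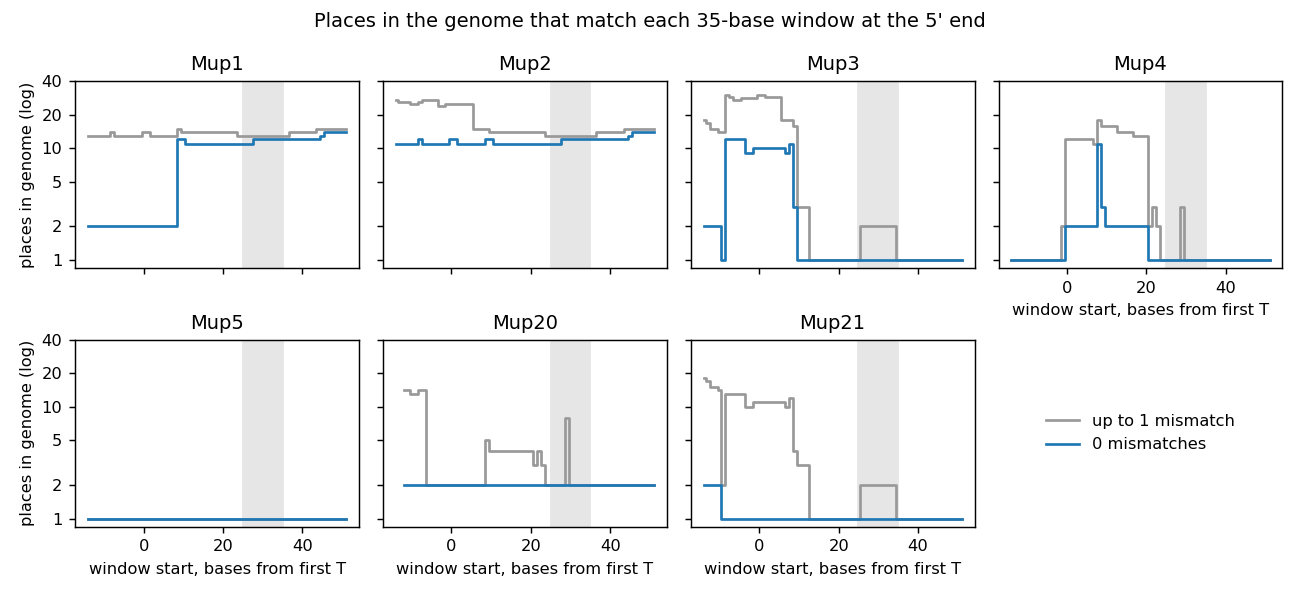
Number of places in the genome (log axis) that match each window of 35 bases, against the distance of the start of the window from the first T of TATATAA, with 0 mismatches (blue) and with up to 1 mismatch (grey line), for the 7 members. The grey band marks starts 25 to 35 bases behind that T. There, Mup1 and Mup2 match 11 or 12 places exactly, Mup20 matches 2, and Mup3, Mup4, Mup5 and Mup21 match 1.

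The 11 windows that start 25 to 35 bases behind the first T of TATATAA, a stretch added after the data had been seen, gave the clearest split. Without mismatch, Mup1 and Mup2 matched 11 or 12 places with each window, Mup20 2 places, and Mup3, Mup4, Mup5 and Mup21 only 1. With 1 mismatch allowed, 9 of the 11 windows of Mup3 and also 9 of the 11 of Mup21 had a second place. Over all exons, 26 of 690 windows of Mup20 and 318 of 731 windows of Mup3 had no second place, and 62 and 473 had none when no mismatch was allowed. Reads across exon borders were not part of this search. How far the lost reads lower the level of each gene was not tested, so that levels of different members compare only what was counted. Since a capped RNA is meant to give 1 read whatever its length, levels were not divided by the length of the transcript. For Mup20, however, all 66 windows of the first 100 bases had a second place also without mismatch. By this search no window of that stretch belongs to 1 place only. Where the counted reads of Mup20 lie along the gene was not tested. In cpm, Mup3 was above the other 2 by a wide margin at every age. Mup20 was above Mup21 at every age, but at 9 months their 95% intervals of counting error, 194 to 255 cpm for Mup20 and 157 to 212 cpm for Mup21, overlapped.

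The 80 bases before the annotated start of Mup3 and Mup21 are shown because both genes can be counted and are neighbours in sequence, while 32.2 to 50.4 counts of Mup3 fell on each count of Mup21. Capitals mark bases of Mup21 that differ from Mup3, or are absent from it, in an alignment of the 250 bases before the start.
Mup3 (chr4:61748377-61748456): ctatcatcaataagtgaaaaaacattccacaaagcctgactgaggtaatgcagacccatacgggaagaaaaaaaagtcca
Mup21 (chr4:61811898-61811977): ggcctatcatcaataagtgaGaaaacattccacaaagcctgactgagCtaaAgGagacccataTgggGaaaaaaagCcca

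In this stretch 7 bases of Mup21 stood apart from Mup3. Bases of Mup3 that Mup21 lacks are not marked and not part of this number. Over 250 bases, Mup3 and Mup21 were identical at 91.3% of the aligned positions, Mup3 and Mup4 at 87.4%, and Mup3 and Mup20 at 59.7%. Stretches this similar came with very different counts, for Mup3 and Mup21 and also for Mup3 and Mup4. These counts compare only what was counted, so that a link between this sequence and the RNA level was not tested.

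To compare ages, counts were put on the scale of the centered log-ratio (clr), the natural logarithm of a count relative to the geometric mean of all 8704 genes with counts in every library. A fold-change is the ratio of 2 such values, and 1.5-fold was taken as the size to call. Mup3 was at 1.01-fold at 9 months relative to 3 months (95% interval 0.977 to 1.05) and 1.08-fold higher at 15 months (1.04 to 1.13), a direction that turned to 0.931 when 1 was added to all counts. At 21 months Mup3 was at 0.846 of the level at 3 months (0.812 to 0.882) and at 0.780 of the level at 15 months (0.746 to 0.817). The value of 0.846 turned to 1.07 when Gapdh alone was the reference and stayed below 1 under the other 6 scalings. In cpm, Mup3 was at 5954, 5885, 7062 and 5176 at 3, 9, 15 and 21 months. The youngest libraries were close to each other, the library of 15 months was the highest and that of 21 months the lowest.

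Mup20 was 1.24-fold higher at 9 months than at 3 months (1.01 to 1.52), 1.55-fold higher at 15 months (1.25 to 1.93) and 1.11-fold higher at 21 months (0.893 to 1.39). In cpm it was at 185, 223, 314 and 212. Mup21 was 1.58-fold higher at 9 months (1.24 to 2.02), 1.28-fold higher at 15 months (0.957 to 1.71) and 1.11-fold higher at 21 months (0.837 to 1.46), with 118, 183, 165 and 135 cpm. Both were lowest at 3 months, Mup20 was highest at 15 months and Mup21 at 9 months. At 9 months, 1 of these 3 members (Mup21) was past 1.5-fold higher, beside 6.22% of the 933 genes with at least 50 counts in every library. At 15 months it was again 1 of 3 (Mup20), beside 7.29% of these genes. At 21 months none of the 3 was past 1.5-fold in either direction, beside 8.25% lower and 4.61% higher by that size among these 933 genes. With the 7 marker genes of the study as reference (Atp5h, Gsk3b, Sirt2, Nono, Tprkb, Tspo and Ttr), the value of Mup21 at 9 months was 1.42 and no longer past 1.5-fold. With the pseudocount reference, the value of Mup20 at 15 months was 1.33.

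**Figure D2:**
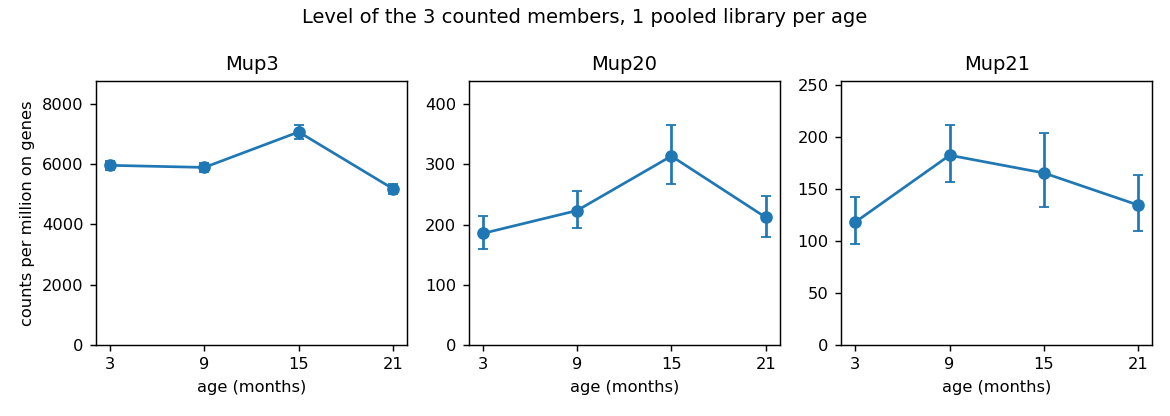
Level of Mup3, Mup20 and Mup21 in cpm (vertical axes from 0, with a scale of their own) against age in months, 1 pooled library per age. Bars are exact 95% Poisson intervals of counting error. Mup3 runs between 5176 and 7062 cpm, Mup20 between 185 and 314 cpm and Mup21 between 118 and 183 cpm.

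Gapdh, a common reference gene, had 1363 counts at 3 months and 437 at 15 months. With Gapdh alone as reference, the fold-change from 3 to 15 months was 2.03 for Mup3, 2.91 for Mup20 and 2.40 for Mup21. Under the other 6 scalings Mup20 was between 1.33 and 1.70, with the highest value from the 7 marker genes.

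The variance of clr over the 4 ages, the measure of stability of the study, was 0.0111 for Mup3, 0.0349 for Mup20 and 0.0397 for Mup21. The median was 0.160 over all 8704 genes and 0.0267 over the 933 genes with at least 50 counts in every library. Only 4.17% of all genes, and 21.3% of the genes with at least 50 counts, varied less than Mup3. Mup20 and Mup21 were above the median of these well-counted genes, with 61.2% and 67.0% of them varying less. The part of these variances that counting noise alone would give was 0.000221 for Mup3, 0.00570 for Mup20 and 0.00904 for Mup21. Without the library of 21 months the variance of Mup3 was 0.00140. That of Mup20 was 0.0122 without the library of 15 months, and 0.0182 with 1 added to all counts, and that of Mup21 was 0.0145 without the library of 9 months and 0.0611 without that of 15 months.

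The 4 counts of a gene were compared with the shares expected from the geometric means by Pearson's chi-square test with 3 degrees of freedom, which compares these libraries and not the ages. All 3 members differed between the libraries by more than counting noise, with adjusted p-values (chi-square, Benjamini-Hochberg over 8704 genes) of 1.05e-25 for Mup3, 0.00412 for Mup20 and 0.00563 for Mup21. The background is high, with 25.3% of all genes and 59.6% of the genes with at least 50 counts past the same threshold. A linear trend with age was fitted with edgeR's quasi-likelihood test across all genes, which had 2 residual degrees of freedom. It called 6 of 5569 genes (0.108%), and 290 genes had an unadjusted p under 0.05. None of the 3 members was among either, and the other 4 did not pass the filter on low counts. The fitted change from 3 to 21 months was -0.13 (log2) for Mup3, 0.31 for Mup20 and 0.06 for Mup21, each with an adjusted p of 0.998 (edgeR). Over 7 alternatives the adjusted p of these 3 ranged from 0.744 to 0.999.

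Within the family, Mup3 held 95.1% of the counts of the members at 3 months (94.5% to 95.6%), 93.5% at 9 months (92.9% to 94.1%), 93.6% at 15 months and 93.7% at 21 months. The share of Mup20 was 2.96%, 3.55%, 4.16% and 3.84% at the 4 ages, and that of Mup21 was 1.89%, 2.90%, 2.19% and 2.44%. These shares do not depend on the scaling between libraries. Relative to Mup3, Mup20 was 1.43-fold higher at 15 months than at 3 months (1.14 to 1.78) and 1.32-fold higher at 21 months (1.05 to 1.65). Mup21 relative to Mup3 was 1.56-fold higher at 9 months, with a lower bound of 1.22, and its intervals at 15 and 21 months, 0.879 to 1.58 and 0.986 to 1.74, included 1.

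**Figure D3:**
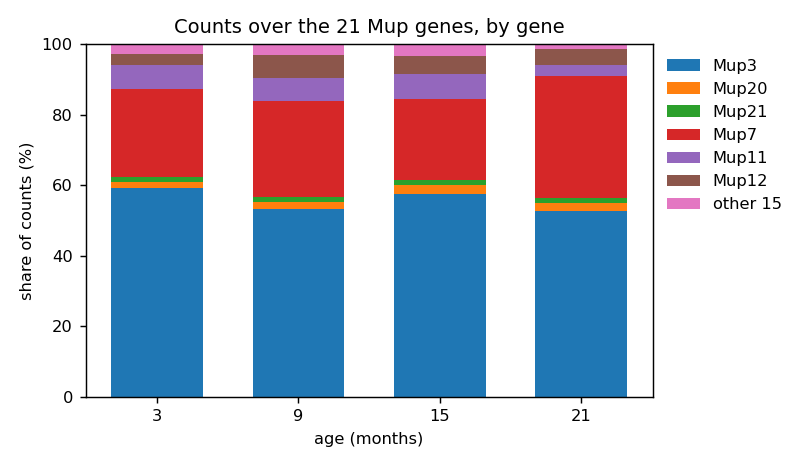
Share (%) of the counts of all 21 Mup genes that fell on each gene, by age in months, 1 pooled library per age, with the 15 genes not named drawn as 1 block. Mup3 holds 59.2%, 53.1%, 57.6% and 52.7% at 3, 9, 15 and 21 months.

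Of the other 35 Mup symbols, 8 had at least 20 counts in any library, and they are given here because reads of the members and of these copies are hard to tell apart. Mup7 had 2410, 2888, 1487 and 2514 counts, second to Mup3 in the family at every age. Mup11 had 668, 689, 455 and 225 counts, and Mup12 had 277, 679, 314 and 321 counts. Mup17 had 138, 105, 67 and 27 counts, and Mup10 had 92, 145, 116 and 54 counts. Mup9 had 26, 54, 16 and 9 counts, Mup16 had 18, 13, 21 and 3 counts, and Mup-ps22, a pseudogene on chromosome 11, had 70, 90, 62 and 31 counts.

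At 21 months, 5 of the 8 were lower than at 3 months by at least 1.5-fold and none was higher by that size, beside 22.7% lower and 15.5% higher among the 4295 genes with at least 20 counts in any library. Their median fold-change was -1.01 (log2), beside -0.07 over these genes. Mup17 was at 0.247 (0.157 to 0.376), Mup11 at 0.426 (0.365 to 0.496), Mup16 at 0.211 (0.0398 to 0.722), Mup9 at 0.438 (0.180 to 0.964) and Mup-ps22 at 0.560 (0.355 to 0.866) of the level at 3 months. In contrast, Mup7 was 1.32-fold (1.25 to 1.40) and Mup12 1.47-fold higher (1.24 to 1.73). Mup12 was 2.51-fold higher already at 9 months (2.18 to 2.89). Mup10 was 2.10-fold higher at 15 months (1.58 to 2.79). Mup7 stood at 42.3 counts per 100 counts of Mup3 at 3 months and at 66.0 at 21 months, which is 1.56-fold higher (1.45 to 1.67). Mup11 stood at 11.7 and 5.91, a ratio of 0.503 (0.428 to 0.590). The copies thus moved apart from Mup3 in both directions. Most of their windows were shared. With up to 1 mismatch, a second place was found for each window of Mup11 (119), Mup12 (129), Mup16 (130) and Mup17 (128), for 110 of 130 of Mup7, 79 of 85 of Mup9, 55 of 66 of Mup-ps22 and only 39 of 66 of Mup10. In the stretch behind TATATAA, none of the 11 windows of Mup10 had a second place, and those of Mup12 had one only when 1 mismatch was allowed. Without mismatch, each of these windows of Mup7, Mup11, Mup16 and Mup17 still had a second place. Reads with more than 1 place are in no gene count. Over all exons, 800 of 800 windows of Mup16 and 689 of 689 of Mup17 had a second place with up to 1 mismatch. Without mismatch, 43 windows of Mup16 and 117 of Mup17 had none. For Mup11, 71 of 1338 windows over all exons had no second place with up to 1 mismatch, and for Mup7 20 of 795. Where the counted reads of these genes lie, and how the loss of shared reads bears on these values, was not tested. None of the 8 passed the linear trend. Mup17 came closest (-1.55 in log2 from 3 to 21 months, adjusted p = 0.345, edgeR), and without the library of 15 months its adjusted p was 0.0150.

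**Figure D4:**
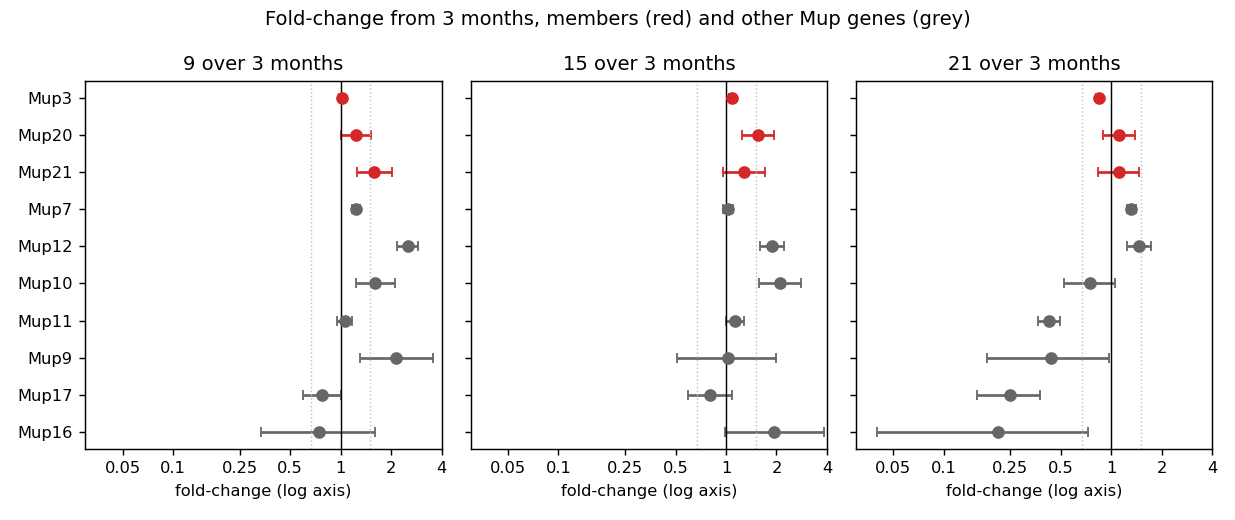
Fold-change relative to 3 months on the clr scale (log axis) at 9, 15 and 21 months for the 3 counted members (red) and 7 other Mup genes (grey). Bars are exact 95% intervals of counting error, and dotted lines mark 1.5-fold in either direction. At 21 months the members lie between 0.846 and 1.11, and Mup16, Mup17, Mup11 and Mup9 lie at 0.438 or lower.

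The genes known to control or accompany the Mup genes were taken from lists, and no gene of any list passed the linear trend. Of 22 genes of the growth hormone and STAT5 axis, 17 were tested. Igf1, the growth factor that the liver makes in response to growth hormone, had 1436, 1358, 780 and 1336 counts and was 1.18-fold higher at 21 than at 3 months (1.09 to 1.27). Ghr, the growth hormone receptor, had 235, 228, 95 and 160 counts (0.861, 0.700 to 1.06), and Hnf4a, a main transcription factor of hepatocytes, had 343, 293, 204 and 291 counts (1.07, 0.914 to 1.26). The largest values belonged to genes with few counts, Jak2, the kinase of the receptor, with 20, 5, 4 and 4 counts, and Foxa2 with 17, 9, 21 and 4 counts. Of the 15 genes of this list with at least 20 counts in any library, 5 were lower and 2 were higher by 1.5-fold, beside the same 22.7% and 15.5%, with a median of -0.09 (log2), beside -0.07.

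Of 23 genes known to be higher in male than in female liver, as the Mup genes are, 22 were tested for the trend and had at least 20 counts in any library. Of these, 6 were lower and 3 higher by 1.5-fold at 21 months, near the 22.7% and 15.5% over all genes with that minimum. The median was -0.31 (log2), beside -0.07 over the same genes. Without adjustment, 5 had a downward and 1 an upward slope at p under 0.05 in edgeR's trend test. Over all 5569 genes tested, 290 were under that p in either direction, and their split by direction was not taken. Serpina1e, a protease inhibitor of the blood, had 24059, 18403, 7857 and 13569 counts (0.713, 0.698 to 0.728), Gstp1, a glutathione transferase, had 9437, 6068, 1941 and 3848 counts (0.516, 0.496 to 0.535), and Cyp2d9, a steroid hydroxylase, had 5146, 4223, 2304 and 2962 counts (0.728, 0.695 to 0.762). The largest differences were those of Cyp4a12b, a fatty acid hydroxylase, with 48, 65, 17 and 9 counts (0.237, 0.102 to 0.489) and of Ugt2b38 with 26, 24, 8 and 5 counts (0.243, 0.0729 to 0.644). In the order of these 22 genes by fold-change, Mup3 at 0.846 lay above 12, Mup20 above 19 and Mup21 above 18 of them.

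**Figure D5:**
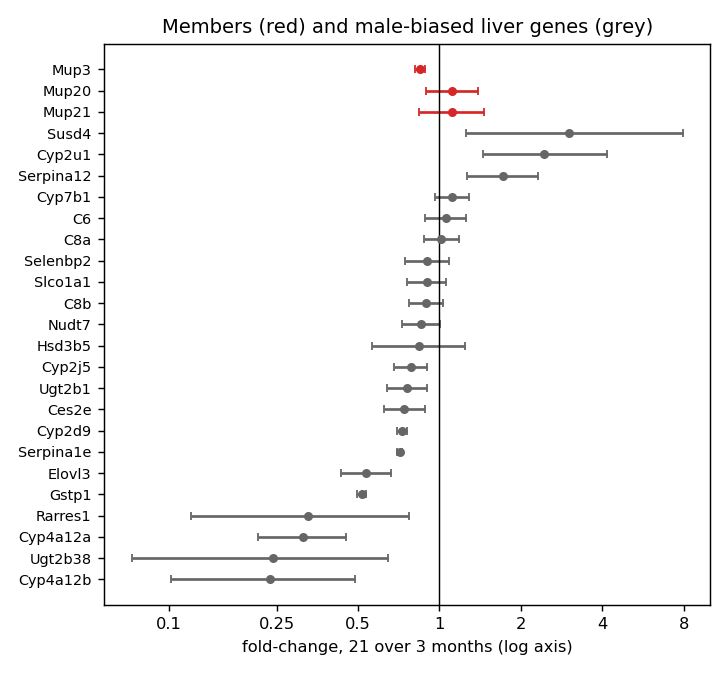
Fold-change from 3 to 21 months on the clr scale (log axis) for the 3 counted members (red) and the 22 male-biased liver genes with at least 20 counts in any library (grey), with exact 95% intervals of counting error. The list runs from 0.237 for Cyp4a12b to 3.00 for Susd4, and the members lie between 0.846 and 1.11.

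Genes known to be higher in female liver had few counts in these males. Only 3 of 21 had counts in every library, and only Acot3 reached 20 counts (21, 14, 14 and 22). Of 21 other genes of the lipocalin family, 20 were in the files and 7 were tested. Ambp had 3098, 3050, 1887 and 2489 counts (1.02-fold from 3 to 21 months, 0.963 to 1.07), Rbp4, the retinol carrier of the blood, had 1223, 1367, 935 and 1035 counts (1.07, 0.984 to 1.16), and Orm1 had 1010, 967, 471 and 755 counts (0.945, 0.859 to 1.04). Orm2 was 1.52-fold higher (0.975 to 2.39) and Apom was at 0.834 (0.735 to 0.946). Lcn2 was at 0 counts at 3 months and had 9, 32 and 23 counts at the later ages. The 16 other secreted proteins of hepatocytes were all within 1.5-fold. Their median was -0.06 (log2), with Alb at 1.16 (1.15 to 1.18), Ttr at 0.757 (0.738 to 0.777) and Ahsg at 0.667 (0.654 to 0.679).

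Among 492 other genes with at least 100 counts in every library, the 5 whose clr profile over the 4 ages was most like that of the summed members were Serpina3n, Qsox1, Eef2, Slco1a1 and C9. Their Euclidean distances from the profile of the members, after centring each profile on its mean, were 0.0381, 0.0407, 0.0486, 0.0522 and 0.0838, and the median over the 492 genes was 0.338. Slco1a1, a transporter of the male-biased list, had 361, 353, 240 and 256 counts. Like the summed members, which stood at 0.01, 0.04, 0.10 and -0.15 in centred clr, all 5 were highest at 15 months and lowest at 21 months. The 5 were picked by this profile, so that their shared high and low ages follow from the choice. Mup3 held 93.5% to 95.1% of the summed counts, while Mup20 and Mup21 were lowest at 3 months. The likeness rests on 4 libraries and is a description of them.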

How the data were processed

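The authors removed uncapped RNA with a nuclease, opened the cap, attached bar-coded linkers and read 35 bases from the 5’-end by SOLiD sequencing. The 4 libraries shared one lane. They mapped the reads to mm9 with the CLC Genomic workbench, allowing about 1 mismatch. HTSeq is named in the submitters' processing notes, but its settings, including the use of strand, are not given in the sources used here. The deposited files hold raw counts per gene symbol, without normalisation. Rows at the foot of each file, which tally records without a gene (91.6% to 93.3% of all records), were left out. The files hold 0 columns of per-sample values that were not used.

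The 7 members and all gene lists were chosen with earlier results of these data known. The age of a library was taken from its label. For the clr, natural logarithms were centred on their mean over the genes that had a count of 1 or more at all ages, and the variance took the divisor 3. Fold-changes between 2 libraries carry exact Clopper-Pearson 95% intervals, shares carry Wilson intervals, and both cover counting error only. Reads were counted without molecular identifiers. The linear trend used edgeR 4.0.16 (quasi-likelihood test, TMM, filterByExpr, Benjamini-Hochberg adjusted p of 0.05) in R 4.3.3, with DESeq2 1.42.0 as an alternative. Since there is 1 library per age, p-values of the trend rest on the departure of 4 libraries from a line, and those of the chi-square test on counting noise. Windows, transcripts and positions came from NCBIM37 with the GENCODE M1 annotation, and coding sequences were aligned with Biopython 1.88. Other steps used Python 3.11.15, numpy 2.4.6, pandas 2.3.3 and scipy 1.17.1.

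The text names the members, other Mup symbols with at least 20 counts in any library, and from each list the 3 genes with the most counts and the 2 with the largest fold-change from 3 to 21 months among those with at least 20 counts in any library. Genes of a list past the trend would also have been named. It further names the 5 genes with the profile nearest to the summed members, the 2 genes with a count on each side of the cluster, and Gapdh and the 7 marker genes as references. Epcam, Susd4 and Lcn2 fall outside these rules and were chosen after their values had been seen. Alternatives were other scalings, minimum counts, a pseudocount of 1, leaving out each age, DESeq2, other mismatches and other stretches of the transcripts.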

Additional observations from a re-analysis of the deposited data

How the results depend on the processing

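There was 1 library per age, 4 of the 7 members had 3 counts or fewer in every library, and the 15-month library was the shallowest, with 525772 counts. No paired analysis was possible because each age has 1 library. The linear trend called 6 genes, 0 with DESeq2's Wald test (123 at an unadjusted p under 0.05), and 7 to 23 when a library was left out: 16 without 15 months and 23 without 21 months. These fits have fewer residual degrees of freedom. No member was called in any of them. The chi-square test called 2204 genes, and 1262 when at least 10 counts were required in every library, with fewer genes tested. Library totals or TMM scaling changed the call of none of Mup3, Mup20 and Mup21.

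The fold-change of the summed members from 3 to 9 months was 1.03 (0.924 with the 7 marker genes, 1.36 with Gapdh). From 3 to 15 months it was 1.10 (0.947 with the pseudocount reference, 1.16 with TMM, 1.21 with library totals, 1.21 with the 7 marker genes, 2.07 with Gapdh). From 3 to 21 months it was 0.859 (0.789 with the pseudocount reference, 1.08 with Gapdh). Gapdh as reference moved every log2 fold-change by 0.40, 0.91 and 0.33 at 9, 15 and 21 months, and the pseudocount reference by -0.05, -0.22 and -0.12. The cause of these shifts was not tested. Among 63 fold-changes of the 3 counted members under other scalings, 49 stayed within the 95% interval of the value given and 14 left it. The share of Mup3 in the counts was 52.7% to 59.2% over all 21 Mup genes in place of the 7 members. Over all exons, 52.4% of the windows of Mup5 had a second place, and none did in its first 100 bases.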
